A study of Mus musculus with 35 samples.

Results

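The 7 genes described here encode RNA-binding proteins, among them nucleases of the Regnase family, that set how long cytokine messengers last: Zfp36 (tristetraprolin), its paralogs Zfp36l1 and Zfp36l2, the Regnase genes Zc3h12a and Zc3h12c, Roquin-1 (Rc3h1) and HuR (Elavl1). They were chosen by symbol, by a rule that uses no measured value, though with earlier results of these data known. Each matched 1 of the 47069 gene identifiers measured. All 7 passed the minimum mean level of 1 FPKM, as did 11354 genes in all. FPKM, the number of sequenced fragments scaled by gene length and by library size, is the unit of every level below.

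Bone marrow-derived macrophages (BMDMs) were grown from C57BL/6 mice in medium conditioned by L929 cells, a fibroblast line that secretes the macrophage growth factor M-CSF. Wild-type BMDMs, and BMDMs labelled AMPKa1-/- that lack a catalytic subunit of the energy sensor AMPK by their label, were exposed for 24 h to 6 treatments. These were vehicle (DMSO), 100 nM dexamethasone (Dex, a synthetic glucocorticoid), 100 ng/ml LPS (a bacterial cell wall component sensed by TLR4), LPS + Dex, 1 µg/ml DAMPs (damage-associated molecular patterns, not further specified by the labels) and DAMPs + Dex. Every group had 3 libraries except wild-type LPS, where replicates 2 and 3 were used and replicate 1 was not analysed here, giving 17 wild-type and 18 AMPKa1-/- libraries. Library totals, estimated from the FPKM steps of weak genes, were 15837203 to 31955298 fragments. The labels do not tie libraries to mice, so p-values measure the spread between these libraries.

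Members of the tristetraprolin family bind AU-rich elements in the 3′ untranslated region of cytokine messengers and recruit the CCR4-NOT complex, which shortens the poly(A) tail and starts decay. Regnase-1 (Zc3h12a) is an endonuclease that cuts stem-loops in messengers such as Il6, and Roquin-1 binds similar stem-loops and recruits deadenylases. HuR binds AU-rich and U-rich stretches and is best known for protecting messengers from decay. Tristetraprolin acts on its own messenger too, and in activated macrophages MAP kinase p38 and its target MK2 restrain it, which the phosphatase Dusp1 counteracts.

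The AU-rich element of the tristetraprolin family was looked for in the annotated 3′ untranslated regions (GENCODE M21, GRCm38), as TATTTAT on the transcript strand with overlapping matches counted. Of the 7 members 6 carried it, against 27.98% of the 10357 tested genes with such a region. The members' regions were longer, with a median of 1835 bases against 994 for all tested genes, and the shares are not corrected for length. Elavl1 held 8 copies, Zfp36, Zfp36l1 and Zfp36l2 held 3 each, Zc3h12c and Rc3h1 held 2 each (in 4062 and 7181 bases), and Zc3h12a held 0. Among the cytokine targets described below, 14 of 15 held it, with 8 copies in Tnf, 7 in Cxcl2 and 1 in Il6. The sites shown let the family's own elements be set beside those of Tnf and Cxcl2, their textbook kind of target, with each TATTTAT in capitals.
Tnf: TATTTATTATTTATTTATTATTTATTTAT
Cxcl2: atttatctatgTATTTATTTATTTATtaa
Zfp36: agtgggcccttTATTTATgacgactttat
Zfp36l1: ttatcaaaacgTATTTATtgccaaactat
Zfp36l2: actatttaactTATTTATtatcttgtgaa
Elavl1: attTATTTATTTATTTATtttTATTTATt
These lie at chr17:35199678-35199706 (minus strand), chr5:90905332-90905360 (plus), chr7:28376966-28376994 (minus), chr12:80108422-80108450 (minus), chr17:84184914-84184942 (minus) and chr8:4285776-4285804 (minus), in the order shown. In the windows shown the 3 tristetraprolin genes had isolated copies, whereas Tnf, Cxcl2 and Elavl1 had overlapping runs. A match is a description of the letters and not of binding.

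The labels were checked first. Prkaa1, the gene for AMPKa1, stood at 8.59 to 26.1 FPKM in the wild-type libraries and at 9.05 to 24.0 FPKM in the libraries labelled AMPKa1-/-, so its gene-level value did not separate the genotypes (adjusted p 0.350 to 1.00 over the 6 treatments). It was called within genotypes for wild-type Dex (0.63 on the log2 scale) and AMPKa1-/- LPS (-0.56) against vehicle. Which part of the gene the allele lacks is not given in the labels, so this value does not check the genotype, and the libraries are called by their label throughout. The treatments were visible: Tsc22d3 (GILZ, a glucocorticoid-induced gene) was at 667 to 899 FPKM with Dex and 48.3 to 54.6 with vehicle, and Il1b was at 11233 to 16653 FPKM with LPS and 2.70 to 13.03 with vehicle. All 7 macrophage markers reached a mean of 1 FPKM, led by Lyz2 (lysozyme), and their sum ranged from 12948 to 39154 FPKM. Lyz2 averaged 24097 FPKM beside a median sum of 27941, so the sum mostly follows Lyz2. The sum moved with treatment: its mean was 22942 FPKM with vehicle, 15604 with LPS and 29325 with LPS + Dex in wild-type, and 27193, 19045 and 33470 FPKM in AMPKa1-/- BMDMs. LPS raised 2 and lowered 4 of the 7 in each genotype, LPS + Dex against LPS raised 3 and lowered 1, and Dex alone and DAMPs + Dex against DAMPs each raised 1 and lowered 3. Of all genes tested, 55.7% (wild-type) and 64.3% (AMPKa1-/-) were called with LPS, and 34.1% and 37.7% with LPS + Dex against LPS. With Dex alone 30.9% and 27.9% were called, and with DAMPs + Dex against DAMPs 24.3% and 25.3%.

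Markers of other cells were low or moved with treatment. The 4 dendritic cell markers summed to 37.6 to 110 FPKM in the LPS libraries and to at most 1.36 elsewhere, nearly all of it Ccr7, while Flt3 and Zbtb46 stayed under 1 FPKM and Cd209a was at 0 in every library. The 8 neutrophil markers summed to 329 to 1200 FPKM in the LPS + Dex libraries, 126 to 161 with LPS and at most 47.8 elsewhere, led by S100a8. Of the 8, Ly6g, Mpo and Elane stayed under 1 FPKM in every library. The other 5, with Camp, Ngp and Ltf among them, averaged at least 1 FPKM. The 6 lymphocyte markers, led by Cd79a, summed to at most 2.05 FPKM, the 4 stromal markers, led by Col1a1, to at most 12.9 FPKM, and the 4 mast cell and erythroid markers, led by Cpa3, to at most 0.878 FPKM. The stromal marker Dcn, which passed the minimum level only through the LPS libraries, rose with LPS by 1.82 and 2.04 on the log2 scale. Col1a1 rose with DAMPs + Dex against DAMPs in wild-type (1.25). The macrophage, dendritic cell and neutrophil sums moved with LPS and LPS + Dex, and single macrophage markers also moved with Dex. The part of all these markers in the results below was not tested. In these bulk samples, fewer cells of a type and less RNA per cell cannot be told apart.

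LPS moved most of the 7 genes, and Dex added to LPS moved several of them in the opposite direction (limma, Benjamini-Hochberg adjusted p under 0.05 over all genes tested). In LPS against vehicle, 5 of 7 were called in wild-type BMDMs, 2 higher and 3 lower, where 55.7% of all tested genes were called, 19.9% higher and 35.8% lower. In AMPKa1-/- BMDMs the same comparison also called 2 higher and 3 lower, against 64.3% of all genes, 20.2% higher and 44.1% lower. The split over all genes depended on scaling: with libraries centred on a common median, 2886 genes were higher and 3351 lower in wild-type in place of 2258 and 4068, and 3361 and 3504 in AMPKa1-/- BMDMs in place of 2295 and 5004. For LPS + Dex against LPS, 4 of 7 were called in wild-type, 2 higher and 2 lower, against 34.1% of all genes, 16.6% higher and 17.5% lower. In AMPKa1-/- BMDMs 3 of 7 were called, 1 higher and 2 lower, against 37.7% of all genes, 19.3% higher and 18.4% lower. Dex alone called 2 of 7 in wild-type, both higher, against 30.9% of all genes, 15.9% higher and 14.9% lower, and 0 of 7 in AMPKa1-/- against 27.9%, with limma and also at an unadjusted p under 0.05, where 4323 of all genes passed. The Dex split over all genes also turned with median centring, from 1810 higher and 1696 lower to 1648 and 2011 in wild-type. In AMPKa1-/- BMDMs it went from 1356 and 1812 to 1734 and 1610. Wild-type LPS + Dex against LPS turned too, from 1887 and 1984 to 2272 and 1773. Members were called at shares up to 71.4% (5 of 7), and with 7 genes such a share is not read as apart from the background, so what follows concerns each gene. The members' median log2 fold change was -0.04 and -0.01 for LPS against vehicle and -0.03 and 0.02 for LPS + Dex against LPS. The median log2 fold change over all genes was -0.19 in wild-type and -0.30 in AMPKa1-/- BMDMs for LPS against vehicle, and within 0.1 of 0 in the other 8 responses. LPS against vehicle and LPS + Dex against LPS share the LPS libraries, and the responses are therefore given side by side only.

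**Figure D1:**
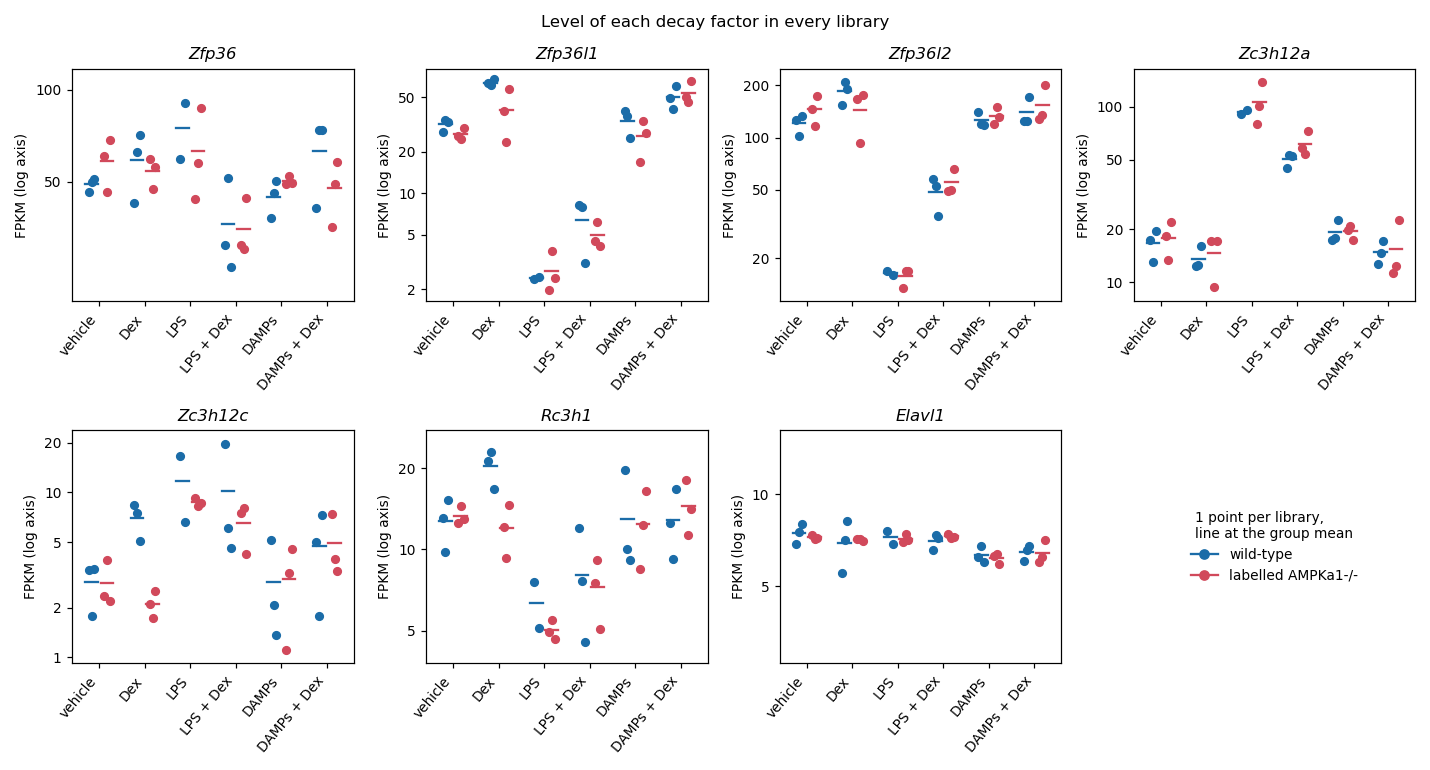
Level of each decay factor in FPKM on a log axis (y) by treatment (x), with 1 point per library and a line at the group mean, for wild-type (blue) and AMPKa1-/- (red) BMDMs. Zfp36l1 and Zfp36l2 were lowest with LPS in both genotypes, at 1.96 to 3.801 and 13.6 to 17.0 FPKM, and Zc3h12a was highest with LPS, at 80.0 to 138 FPKM.

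Zfp36 (ENSMUSG00000044786, chr7:28376784-28380253, minus strand) encodes tristetraprolin, the founding member of the family. In wild-type BMDMs it measured 46.5, 50.01 and 50.9 FPKM with vehicle and 59.5 and 90.5 with LPS. With LPS + Dex it measured 31.2, 51.3 and 26.4 FPKM. Both LPS libraries lay above all of the vehicle libraries and all of the LPS + Dex libraries. LPS against vehicle was 0.57 ± 0.29 on the log2 scale (SE; adjusted p = 0.0965), short of the threshold, and LPS + Dex against LPS fell by 1.05 ± 0.29 (2.07-fold; adjusted p = 0.00523). With libraries centred on a common median, LPS against vehicle became 0.72 with an adjusted p of 0.0419, and without LPS replicate 3 the fall with Dex was 0.75 with an adjusted p of 0.131.

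AMPKa1-/- BMDMs held Zfp36 at 60.6, 46.3 and 68.7 FPKM with vehicle, 43.9, 57.6 and 87.3 with LPS, and 31.1, 30.1 and 44.4 with LPS + Dex. Here the LPS libraries spanned the vehicle libraries, and the lowest LPS library lay just under the highest LPS + Dex library, so that the groups overlapped. LPS + Dex against LPS again fell, by 0.79 ± 0.26 (adjusted p = 0.0168), and LPS against vehicle was 0.06 ± 0.26 (adjusted p = 0.840). The fall did not pass without LPS replicate 3 (log2 -0.53, adjusted p = 0.1498), nor without LPS + Dex replicate 1 (adjusted p = 0.0644) or replicate 2 (adjusted p = 0.0715). Dex alone left no called difference in Zfp36, with 95% intervals of -0.30 to 0.76 in wild-type and -0.63 to 0.43 in AMPKa1-/-.

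Zfp36l1 (ENSMUSG00000021127, chr12:80107754-80113013, minus strand), a paralog with the same pair of zinc fingers, had the widest range of the 3 paralogs as a ratio, from 1.96 to 67.4 FPKM. It was at 27.9, 34.3 and 33.0 FPKM with vehicle and 2.39 and 2.44 FPKM with LPS in wild-type, and at 26.3, 24.8 and 30.1 against 1.96, 3.801 and 2.43 FPKM in AMPKa1-/- BMDMs. No LPS library of either genotype came near a vehicle library. The log2 fold change was -3.26 ± 0.32 in wild-type (9.55-fold lower on the FPKM + 1 scale, as are all folds here; adjusted p = 1.06e-09) and -2.94 ± 0.28 in AMPKa1-/- (7.65-fold lower; adjusted p = 6.57e-10). At the low end Zfp36l1 rested on an estimated 129 fragments.

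Zfp36l1 was higher on average with Dex in all 6 settings, with vehicle, LPS or DAMPs in either genotype, and the rise was called in 3 of them. Wild-type libraries measured 63.2, 61.0 and 67.4 FPKM with Dex, all above the vehicle libraries, a rise of 0.99 ± 0.28 (1.99-fold; adjusted p = 0.00908). In AMPKa1-/- BMDMs the Dex libraries were scattered over 39.7, 23.5 and 57.4 FPKM and overlapped vehicle, at 0.47 ± 0.28 (adjusted p = 0.233), and without Dex replicate 2 the difference was 0.80 with an adjusted p of 0.0469. With LPS + Dex, wild-type libraries measured 8.27, 7.93 and 3.10 FPKM, higher than LPS by 1.03 ± 0.32 (adjusted p = 0.0123), with every library far under vehicle. Leaving out any of 4 of those 5 libraries (LPS replicate 2 or 3, LPS + Dex replicate 1 or 2) put the adjusted p between 0.0586 and 0.0733. The AMPKa1-/- LPS + Dex libraries, at 4.48, 6.19 and 4.12 FPKM, lay above all LPS libraries, with 0.68 ± 0.28 (adjusted p = 0.0591), and it passed with a pseudocount of 0.1 (0.86, adjusted p = 0.0302), median centring (0.69, 0.0184), quantile normalization (0.63, 0.0367) and the length and GC trend removed (0.77, 0.0242). The genotypes were not shown to differ in these responses: the difference was -0.52 ± 0.40 for Dex against vehicle (adjusted p = 0.413) and -0.35 ± 0.43 for LPS + Dex against LPS (adjusted p = 1.00).

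With DAMPs, Zfp36l1 was called for Dex in AMPKa1-/- BMDMs and not in wild-type. AMPKa1-/- DAMPs + Dex libraries measured 49.8, 46.3 and 65.2 FPKM against 16.8, 33.6 and 27.4 with DAMPs, a rise of 1.06 ± 0.28 (adjusted p = 0.00583), which did not pass without DAMPs replicate 1 (0.79, adjusted p = 0.0622). In wild-type the values were 49.6, 41.0 and 60.0 against 39.5, 36.4 and 25.4 FPKM, without overlap, at 0.57 ± 0.28 (adjusted p = 0.159). The difference between the genotypes in that response was 0.49 ± 0.40 (95% interval -0.33 to 1.32; adjusted p = 1.00), so the genotypes were not shown to differ.

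Zfp36l2 (ENSMUSG00000045817, chr17:84183931-84187947, minus strand) was the most abundant member in every group without LPS. Vehicle libraries measured 127, 102 and 134 FPKM in wild-type and 145, 117 and 174 in AMPKa1-/- BMDMs, and LPS libraries measured 17.0 and 16.0, and 13.6, 17.0 and 16.8 FPKM. LPS libraries thus stood within a narrow band far from vehicle in both genotypes. The log2 fold changes were -2.79 ± 0.24 (6.92-fold lower; adjusted p = 1.08e-10) and -3.11 ± 0.22 (8.64-fold lower; adjusted p = 8.42e-13).

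Zfp36l2 was higher with LPS + Dex than with LPS. Wild-type LPS + Dex libraries were at 57.7, 52.2 and 34.999 FPKM and AMPKa1-/- libraries at 49.3, 49.9 and 65.9, between the LPS and the vehicle libraries without touching either. The rises over LPS were 1.46 ± 0.24 (2.76-fold; adjusted p = 1.95e-05) and 1.73 ± 0.22 (3.32-fold; adjusted p = 1.92e-07), and both passed under every alternative and with each library left out. Dex alone gave 154, 209 and 191 FPKM in wild-type, a rise of 0.61 ± 0.22 (1.52-fold; adjusted p = 0.0340), which did not pass without the filter on low genes (adjusted p = 0.0714) or without vehicle replicate 1 or 2 or Dex replicate 2 or 3 (0.0532 to 0.155). In AMPKa1-/- BMDMs Dex gave 166, 92.4 and 176 FPKM, with -0.04 ± 0.22 (adjusted p = 0.911). The difference between genotypes in this response was -0.65 ± 0.31 (95% interval -1.28 to -0.02; adjusted p = 0.223), which did not pass.

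LPS lowered Zfp36l1 and Zfp36l2, Zfp36 was not called, and the share of each in the summed level is given here as a description, with no test between the paralogs. The summed level of the 3 was 202 ± 15.6 FPKM with vehicle (SD, n = 3) and 93.9 ± 21.3 with LPS (SD, n = 2) in wild-type, and 231 ± 42.3 against 81.5 ± 23.7 FPKM (SD, n = 3 each) in AMPKa1-/- BMDMs. Zfp36 made up 23.1 to 26.8% of that sum in the vehicle libraries of both genotypes and 73.5 to 83.1% in the LPS libraries. With LPS + Dex the sum stayed low, at 91.0 ± 24.1 and 95.1 ± 16.7 FPKM (SD, n = 3 each), but the share of Zfp36 was 32.1 to 46.1% and that of Zfp36l2 46.8 to 59.4%. In all libraries without LPS, Zfp36 held 16.4 to 31.0%. The shares are a description of levels of messenger, to which protein levels need not correspond.

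**Figure D2:**
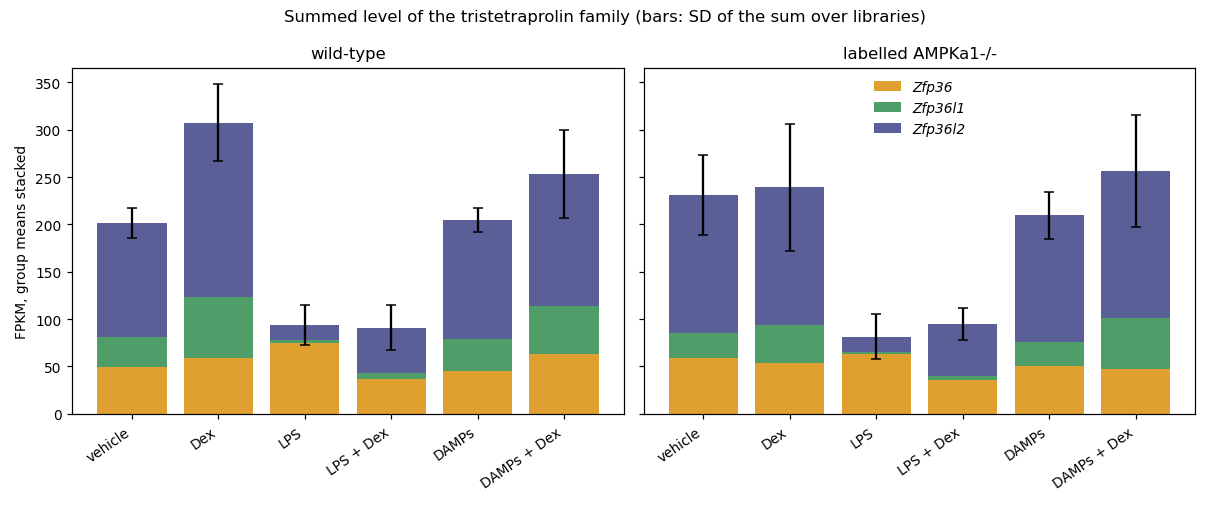
Stacked group means of Zfp36, Zfp36l1 and Zfp36l2 in FPKM (y, from 0) for each treatment (x), with bars for the SD of the summed level over 3 libraries (2 for wild-type LPS). The sum was lowest with LPS and LPS + Dex, and Zfp36 was the largest share with LPS only.

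Zc3h12a (ENSMUSG00000042677, chr4:125118423-125127840, minus strand), the gene for Regnase-1, moved against Zfp36l1 and Zfp36l2. Wild-type libraries measured 17.4, 13.1 and 19.5 FPKM with vehicle, 90.9 and 96.1 with LPS, and 44.7, 53.0 and 52.7 with LPS + Dex. AMPKa1-/- libraries measured 18.3, 13.4 and 22.0 FPKM with vehicle, 80.0, 101 and 138 with LPS, and 58.1, 54.1 and 72.5 with LPS + Dex. In each genotype the 3 treatments formed separate, ordered bands, and LPS + Dex stayed above vehicle. LPS raised the gene by 2.44 ± 0.26 (5.41-fold; adjusted p = 5.70e-09) and 2.49 ± 0.23 (5.63-fold; adjusted p = 3.18e-10), and LPS + Dex against LPS was -0.89 ± 0.26 (adjusted p = 0.00819) and -0.75 ± 0.23 (adjusted p = 0.0110). The falls lost the threshold without LPS replicate 3 in wild-type (adjusted p = 0.0614) and AMPKa1-/- (adjusted p = 0.0976), and without LPS + Dex replicate 2 in AMPKa1-/- (adjusted p = 0.0513). Dex alone left it between 9.33 and 17.2 FPKM, overlapping vehicle in both genotypes, at -0.26 ± 0.23 (adjusted p = 0.398) and -0.30 ± 0.23 (adjusted p = 0.362). In AMPKa1-/- BMDMs, where same-numbered libraries deviated together in this response, Dex gave 17.2, 9.33 and 17.2 FPKM, each under the vehicle library of its number. The replicate block did not change the call. Malt1, the protease that cuts Regnase-1, was on the list of upstream regulators and moved alike: it rose by 4.39 and 3.67 with LPS and fell with LPS + Dex against LPS, at -2.79 and -2.50 (adjusted p = 2.33e-07 or lower in each).

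Zc3h12c (ENSMUSG00000035164, chr9:52111344-52168572, minus strand) encodes a relative of Regnase-1. It had the lowest mean of the 7 in every group without LPS except wild-type Dex. Its libraries ran from 1.10 to 8.42 FPKM without LPS and reached 19.8 FPKM with LPS + Dex, with wide scatter within groups. Vehicle libraries measured 3.39, 1.77 and 3.43 FPKM in wild-type and 2.36, 3.86 and 2.19 in AMPKa1-/- BMDMs, and LPS libraries measured 16.7 and 6.61, and 9.21, 8.28 and 8.58 FPKM. All LPS libraries lay above all vehicle libraries, and the rises were 1.62 ± 0.50 (adjusted p = 0.00701) and 1.37 ± 0.45 (adjusted p = 0.00887). The size of the wild-type rise rested on LPS replicate 2, without which it was 1.01. With the length and GC trend removed the rises were 1.70 ± 0.37 (adjusted p = 0.000247) and 1.66 ± 0.33 (adjusted p = 7.6e-05). Dex alone gave 8.42, 7.52 and 5.06 FPKM in wild-type, above vehicle without overlap at 1.06 ± 0.45 (adjusted p = 0.0719), and 2.09, 1.74 and 2.52 FPKM in AMPKa1-/-, at -0.27 ± 0.45. Dex with LPS gave 19.8, 6.05 and 4.602 FPKM and 7.47, 8.03 and 4.20 FPKM, with -0.31 ± 0.50 (95% interval -1.33 to 0.71) and -0.40 ± 0.45 (-1.31 to 0.52), neither called, although the AMPKa1-/- groups did not overlap.

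Rc3h1 (ENSMUSG00000040423, chr1:160906418-160974978, plus strand), the gene for Roquin-1, fell with LPS. Wild-type libraries went from 13.03, 9.81 and 15.3 FPKM to 7.58 and 5.10, a fall of 0.90 ± 0.32 (1.87-fold; adjusted p = 0.0185), and AMPKa1-/- libraries from 12.5, 14.4 and 12.98 FPKM to 4.95, 5.48 and 4.64, a fall of 1.25 ± 0.29 (2.38-fold; adjusted p = 0.000439). The groups did not overlap in either genotype. The wild-type fall lost the threshold without LPS replicate 3 (-0.66, adjusted p = 0.195) or vehicle replicate 3 (-0.77, adjusted p = 0.0700). Wild-type Dex libraries measured 21.2, 23.0 and 16.7 FPKM, above all vehicle libraries, at 0.64 ± 0.29 (adjusted p = 0.0886), and AMPKa1-/- Dex libraries 12.1, 9.31 and 14.6 FPKM, overlapping vehicle, at -0.16 ± 0.29. LPS + Dex libraries, at 11.99, 7.65 and 4.55 and at 7.50, 9.17 and 5.08 FPKM, overlapped the LPS libraries, with 0.24 ± 0.32 (adjusted p = 0.617) and 0.42 ± 0.29 (adjusted p = 0.268). In AMPKa1-/- BMDMs, where same-numbered libraries deviated together in this response, LPS + Dex was the higher library for 3 of 3 numbers. The adjusted p with the replicate block was 0.251, so the response was not called.

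Elavl1 (ENSMUSG00000040028, chr8:4285382-4325413, minus strand), the gene for HuR, was nearly level. Over all 35 libraries it stayed between 5.53 and 8.20 FPKM, and it was called in none of the 10 within-genotype responses. LPS against vehicle was -0.04 ± 0.11 in wild-type (95% interval -0.27 to 0.19) and -0.01 ± 0.10 in AMPKa1-/- (-0.22 to 0.19), narrow intervals beside the shifts of the other members. These values are relative to the library as a whole: after quantile normalization, the AMPKa1-/- value was 0.32 with an adjusted p of 0.0244, and with length and GC trends removed Elavl1 was higher in AMPKa1-/- than in wild-type BMDMs with Dex by 0.52 (adjusted p = 0.0482). The lowest groups were DAMPs, at 6.36 ± 0.40 and 6.21 ± 0.25 FPKM (SD, n = 3 each), under vehicle without overlap in both genotypes, with adjusted p = 0.522 and 0.406.

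**Figure D3:**
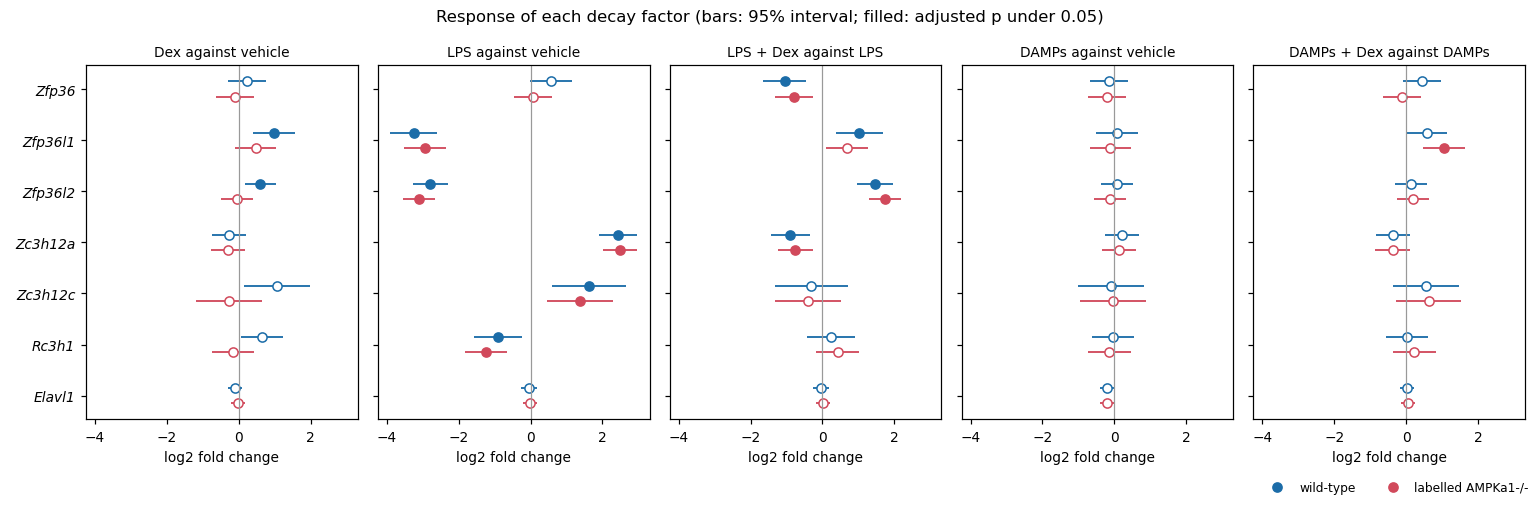
Log2 fold change (x) of each decay factor (y) in 5 responses for wild-type (blue) and AMPKa1-/- (red) BMDMs, with bars for the 95% interval and filled points where the limma adjusted p was under 0.05. With LPS, Zfp36l1 and Zfp36l2 lie between -3.26 and -2.79 and Zc3h12a lies at 2.44 and 2.49, and with DAMPs against vehicle no point is filled.

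DAMPs at 1 µg/ml called none of the 7 against vehicle in either genotype, in a comparison that called 2.01% of all genes in wild-type and 4.13% in AMPKa1-/- BMDMs. At an unadjusted p under 0.05 the count of members was also 0, against 1099 and 1509 of 11354 genes. The widest 95% interval was that of Zc3h12c, -1.003 to 0.83 in wild-type. DAMPs + Dex against DAMPs called 0 of 7 in wild-type, where 24.3% of all genes were called, and in AMPKa1-/- BMDMs 1 of 7, Zfp36l1, higher, where 25.3% were called, 13.1% higher and 12.2% lower. At an unadjusted p under 0.05 the wild-type count was also 0, against 3876 genes. With median centring the AMPKa1-/- split over all genes turned, from 1482 higher and 1389 lower to 1344 and 1580.

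For 3 members, LPS and LPS + Dex stood apart at one end of the order of levels over the 6 treatments. Zc3h12a ran LPS over LPS + Dex over the other 4 groups in both genotypes, and those 4 overlapped their neighbours in the order. Zfp36l2 and Zfp36l1 ran in reverse at the low end, with LPS lowest, then LPS + Dex, and the remaining groups above and apart. For Zfp36l1 in wild-type, Dex (63.9 ± 3.23 FPKM) and DAMPs + Dex (50.2 ± 9.55) also stood apart from each other and from DAMPs (33.8 ± 7.43; SD, n = 3 each). For Zfp36, Rc3h1, Zc3h12c and Elavl1 nearly every group overlapped the next in the order, the exceptions being AMPKa1-/- Dex over LPS + Dex for Rc3h1 and AMPKa1-/- LPS over LPS + Dex for Zc3h12c.

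The scatter of Rc3h1 and Zc3h12c went with a property of the libraries. For each library, the deviation of every gene from its group mean was ranked against exonic length, and the Spearman coefficient (length tilt) ran from -0.502 to 0.526. The library with the highest tilt also had the highest Rc3h1 in 12 of 12 groups and the highest Zc3h12c in 10 of 12, against 2 of 12 for Zfp36 and 2 of 12 for Zc3h12a. Over the 35 libraries, the deviations had a Pearson r with the tilt of 0.93 for Rc3h1, 0.87 for Zc3h12c, 0.66 for Zfp36l1, 0.48 for Zfp36l2, -0.03 for Zc3h12a, -0.13 for Elavl1 and -0.19 for Zfp36, given as a description since the values share libraries. The members' exonic lengths did not follow this order. They were 11308 bases for Rc3h1, 10363 for Elavl1, 6845 for Zc3h12c and 3530 for Zfp36l2. Zfp36 had 3470 bases, Zfp36l1 2990 and Zc3h12a 2882. What sets the tilt was not tested, nor why some members went with it. With the trend on length and GC content removed from each library, an alternative added after the data were seen, Rc3h1 was higher in LPS + Dex than in LPS by 0.47 ± 0.13 in wild-type (adjusted p = 0.00547) and 0.48 ± 0.12 in AMPKa1-/- (adjusted p = 0.00174), and its falls with LPS remained, at -0.79 and -0.85. In the same alternative wild-type Dex against vehicle was called for Zc3h12c (0.84, adjusted p = 0.0465) and Rc3h1 (0.31, adjusted p = 0.0459), and the wild-type rise of Zfp36 with LPS was 0.79 (adjusted p = 0.0109).

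**Figure D4:**
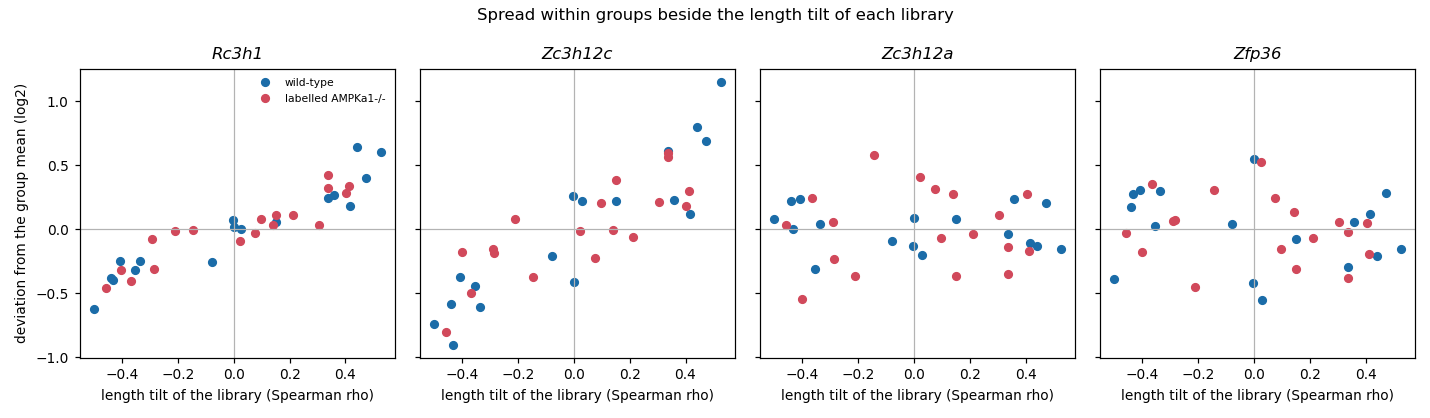
Deviation of 4 genes from their group mean in log2(FPKM + 1) (y) against the length tilt of the library (x, Spearman rho), with 1 point per library, wild-type in blue and AMPKa1-/- in red. Rc3h1 and Zc3h12c rise along the axis (r = 0.93 and 0.87), and Zc3h12a and Zfp36 do not (r = -0.03 and -0.19).

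Between genotypes within a treatment, 1 member was called. With Dex, Zc3h12c measured 8.42, 7.52 and 5.06 FPKM in wild-type and 2.09, 1.74 and 2.52 in AMPKa1-/- BMDMs, a difference of -1.34 ± 0.45 (adjusted p = 0.0311), in a comparison that called 26.5% of all genes, 11% higher and 15.5% lower. With libraries centred on a common median that split turned, from 1245 higher and 1763 lower to 1976 and 1365. In the other 5 treatments the members' count was 0, against 0.432% of all genes with vehicle, 0.766% with LPS, 0.669% with LPS + Dex, 0.731% with DAMPs and 1.06% with DAMPs + Dex, and also 0 at an unadjusted p under 0.05, against 700 to 1300 genes. The Dex comparison also had the strongest relation of fold change to exonic length of the 6 genotype comparisons (Spearman rho -0.51 across genes, which are not replicates). With the length and GC trend removed, Zc3h12c stood at -0.98 (adjusted p = 0.0378). It lost the threshold without the low-level filter (adjusted p = 0.0647) and without Dex replicate 1 or 2 of either genotype (adjusted p 0.0589 to 0.135).

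Zfp36l1 and Rc3h1 were also lower in AMPKa1-/- BMDMs with Dex without overlap, at -0.74 ± 0.28 (adjusted p = 0.0521) and -0.72 ± 0.29 (adjusted p = 0.0610), short of the threshold. With the length and GC trend removed, Rc3h1 shrank to -0.17 (adjusted p = 0.318), whereas Zfp36l1 was -0.79 and passed (adjusted p = 0.0443). Zfp36l1 also passed with genes of at least 5 FPKM (adjusted p = 0.0493) and after quantile normalization (adjusted p = 0.0292). With 1 Dex library left out its adjusted p ran from 0.0174 (without AMPKa1-/- replicate 3) to 0.356 (without AMPKa1-/- replicate 2). Rc3h1 passed without AMPKa1-/- replicate 3 (adjusted p = 0.0477). Tests of whether a response differed between genotypes called 0 of 11354 genes in each of the 5 responses with limma. For Dex against vehicle 2 of 7 members and 2441 genes had an unadjusted p under 0.05: Zc3h12c at -1.33 ± 0.63 and Zfp36l2 at -0.65 ± 0.31. For the other 4 responses 0 of 7 members did, against 514 genes (LPS), 311 (LPS + Dex against LPS), 66 (DAMPs) and 234 (DAMPs + Dex against DAMPs).

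The messengers that these factors are known to act on include cytokine genes that LPS induces, and they were listed with earlier results of these data known. Of the 15 cytokine targets tested, 14 were called higher with LPS in each genotype, with 1 and 0 lower, where 19.9% and 20.2% of all genes were called higher. This count is a description only: 5 of the 15 (Csf2, Cxcl3, Il12b, Il6 and Lif) averaged under 1 FPKM outside the LPS libraries and so were tested only because they were high there. The 15 had a median log2 fold change of 6.09 and 6.88. The largest rises were those of Il1b (11.33 and 11.003), Il1a (10.23 and 10.14) and the chemokine gene Cxcl3 (9.42 and 9.52). Dex with LPS lowered 13 of 15 in wild-type and 14 of 15 in AMPKa1-/- BMDMs and raised 0, where 17.5% and 18.4% of all genes were called lower, with medians of -5.30 and -5.53, led by Cxcl3, Il1a and Il12b (-7.49 and -7.67 for Il12b). These counts and medians are a description only too. The same 5 genes, Cxcl3 and Il12b among them, were tested only because they were high with LPS, the baseline here. Tnf, the classic tristetraprolin target, fell from 330.7 and 455 FPKM to between 20.8 and 30.3 in wild-type, by 3.96 on the log2 scale (adjusted p = 2.1e-11).

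Without LPS the counts of cytokine targets called are a description only. The same 5 of the 15 averaged under 1 FPKM outside the LPS libraries, so they had little level to lose. Dex alone lowered 4 of 15 in wild-type and 5 of 15 in AMPKa1-/- BMDMs and raised 0, beside 1696 and 1812 of all 11354 genes called lower and 30.9% and 27.9% called in either direction, led by Tnf (-3.09 and -3.30), Ccl4 (-2.05 and -1.80) and Il1b (-1.93 and -1.73). DAMPs against vehicle called 0 of 15 in both genotypes, beside 2.01% and 4.13% of all genes, with medians of -0.03 and 0.03. This count is not read as apart from the background. DAMPs + Dex against DAMPs lowered 6 and 7 and raised 0, with 24.3% and 25.3% of all genes called. The falls were led by Ccl4, Tnf and Ccl3 in wild-type (-3.06, -2.59 and -2.29) and by Il1b, Tnf and Ccl4 in AMPKa1-/- (-3.28, -2.89 and -2.83).

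The list of 11 other target messengers was mixed. LPS raised 7 and lowered 3 in each genotype, beside 19.9% of all genes higher and 35.8% lower in wild-type and 20.2% and 44.1% in AMPKa1-/- BMDMs. The medians were 1.76 and 1.83, led by Ptgs2 (cyclooxygenase-2; 9.70 and 9.503), which passed the minimum level only through the LPS libraries, Lcn2 (lipocalin-2; 7.66 and 9.06) and Ier3 (3.75 and 3.37). With Dex added to LPS, Ptgs2 (-8.31 and -7.51) and Plaur (urokinase receptor, -3.51 and -3.93) fell and Lcn2 rose (3.81 and 3.23), so that 2 were higher and 5 lower in wild-type and 4 and 4 in AMPKa1-/- BMDMs, with medians of -0.64 and -0.45, where 34.1% and 37.7% of all genes were called. Dex alone, with 30.9% and 27.9% of all genes called, lowered 5 in each and raised 0 and 1: Tfrc (transferrin receptor, -2.20), Myc (-1.59) and Fos (-1.23) led in wild-type, and Lcn2 (3.32), Fos (-1.92) and Myc (-1.90) in AMPKa1-/-. Myc was also the only call of the 11 with DAMPs, at -1.03 and -0.93, where 2.01% and 4.13% of all genes were called. DAMPs + Dex against DAMPs, with 24.3% and 25.3% of all genes called, raised 1 and lowered 4 and 6, with Lcn2 at 4.61 and 4.27 and Nfkbiz, the gene for IkBζ and a known Regnase-1 target, at -1.61 and -1.71.

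The genes that carry out decay moved in both directions. Of 18 deadenylation genes, LPS raised 1 and lowered 6 in wild-type, where 55.7% of all genes were called, and raised 1 and lowered 8 in AMPKa1-/- BMDMs, where 64.3% were, with medians of -0.18 and -0.31 beside -0.19 and -0.30 for all genes. Tob1, which bridges the CCR4-NOT complex to poly(A)-binding protein, fell (-1.11 and -1.53), Btg1, of the same family, rose by 1.10 in wild-type, and Pan2 fell by 0.84 in wild-type, where Cnot6l (-1.20) and Pan3 (-1.13) followed Tob1 in AMPKa1-/-. LPS + Dex against LPS raised 1 and 3 and lowered 2 and 2, with medians of -0.07 and 0.03 and 34.1% and 37.7% of all genes called, Btg1 falling (-1.58 and -1.28) and the deadenylase Cnot6l rising by 0.70 and 0.97. Dex alone raised 4 in wild-type and 3 in AMPKa1-/- and lowered 0 and 1, where 30.9% and 27.9% of all genes were called, led by Cnot6l (0.92), Pan3 (0.73) and Tob1 (0.69) in wild-type and Parn (0.39), Cnot10 (0.37) and Btg2 (0.36) in AMPKa1-/-.

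Of 29 decapping and exonuclease genes tested, LPS raised 3 and lowered 5 in wild-type and raised 3 and lowered 9 in AMPKa1-/- BMDMs, with medians of -0.07 and -0.23. Those 8 and 12 of 29 stand beside 55.7% and 64.3% of all genes called. Lsm4, a subunit of the ring that binds deadenylated 3′ ends, rose by 0.74 and 0.85, and Lsm2, of the same ring, fell (-0.95 and -0.78). With LPS + Dex against LPS 1 was higher and 0 lower in wild-type (Lsm6, 0.49), and 4 were higher and 2 lower in AMPKa1-/-, where the decapping enzyme Dcp2 fell by 0.72, and the medians were 0.02 in both, where 34.1% and 37.7% of all genes were called. Dex alone lowered 3 and raised 2 in wild-type and lowered 3 and raised 1 in AMPKa1-/-, where 30.9% and 27.9% of all genes were called, with Lsm4 at -1.33 and -0.93. DAMPs called 0 of both enzyme lists in both genotypes, beside 2.01% and 4.13% of all genes, so these counts are not read as apart from the background.

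Of 17 other proteins tested that bind untranslated regions or act on those that do, LPS raised 3 and lowered 3 in wild-type and raised 2 and lowered 5 in AMPKa1-/- BMDMs, with medians of 0.03 and -0.23, beside 55.7% and 64.3% of all genes called. N4bp1, a nuclease related to Regnase-1, rose by 2.14 and 1.78 with LPS and by 1.45 and 1.21 with Dex, and Arid5a, which opposes Regnase-1 on Il6, rose by 1.31 and 1.198 with LPS and fell when Dex was added (-0.81 and -0.80). LPS + Dex against LPS raised 0 and lowered 5 in each genotype, led by Igf2bp2 (-1.27 and -1.53), with medians of -0.27 and -0.12, beside 34.1% and 37.7% of all genes called, so these counts are not read as apart from the background. Igf2bp2 and the Regnase relative Zc3h12d also fell with Dex alone (-1.75 and -2.005, and -1.42 and -1.63) and with DAMPs + Dex against DAMPs (-1.91 and -1.55, and -1.48 and -1.82).

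Among 16 kinases, phosphatases and other regulators of these proteins tested, LPS raised 7 and lowered 5 in each genotype, with medians of 0.11 and 0.08, where 55.7% and 64.3% of all genes were called. LPS + Dex against LPS raised 3 and 4 and lowered 6 in each, with medians of -0.21 and -0.18, where 34.1% and 37.7% of all genes were called. Dusp1, the phosphatase that turns off p38, rose in wild-type by 1.47 with LPS, by a further 2.68 with LPS + Dex against LPS, and by 3.42 with Dex alone. In AMPKa1-/- BMDMs it rose by 0.57, 2.69 and 2.64 in those comparisons. Mapkapk2, the gene for MK2, fell with Dex in wild-type (-0.83) and with DAMPs + Dex against DAMPs in both genotypes (-0.91 and -1.12). Tank, part of a complex that acts with Regnase-1, rose with LPS by 1.71 and 1.58, and the deubiquitinase gene Usp10 fell with Dex (-0.43 and -0.84).

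Several treatment controls moved strongly with LPS or Dex, though not all were called in each response. Fkbp5, a chaperone gene induced by glucocorticoids, rose by 6.88 and 6.45 with Dex, 5.55 and 5.40 with LPS + Dex against LPS, and 7.52 and 7.34 with DAMPs + Dex against DAMPs. Tsc22d3 and the clock gene Per1 rose with Dex in each of those settings, by 1.16 to 5.91. LPS alone lowered Tsc22d3, by 3.78 in wild-type and 3.97 in AMPKa1-/- BMDMs, and its rises of 5.91 and 5.58 with LPS + Dex start from that level. Acod1, Nos2 and Nfkbia, which LPS induces, rose with LPS by 9.06, 6.09 and 3.65 in wild-type and fell when Dex was added (-2.61, -5.63 and -0.73). Nos2 passed the minimum level only through the LPS libraries, so its values are a description only. Without LPS, Nfkbia rose with Dex alone (0.68 and 0.69) and with DAMPs + Dex against DAMPs (1.105 and 0.75), whereas Acod1 fell in both. With DAMPs against vehicle Acod1 rose by 1.29 and 1.96, and Saa3, an acute-phase gene, by 2.65 in AMPKa1-/- BMDMs. Saa3 took 16.0 to 23.97% of the summed FPKM in the LPS + Dex libraries and 3.74 to 7.58% in the LPS libraries, and FPKM values of other genes are shares of what remains.

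The genes most like each member over the 35 libraries were named by Pearson r of log2(FPKM + 1), a measure that treatment dominates. Zfp36l1 was nearest to Ezh1, Gcnt1 and Cbx7 (r = 0.98 for each), Zfp36l2 to Man1c1 (0.98) and Slc45a4 (0.97), and Zc3h12a to Plk3, Traf2 and Gpr84 (0.97 each). Rc3h1 was nearest to Atxn3, Pum2 and Pura (0.98 each), and Zc3h12c to Arhgap31 (0.94), Bcl2l13 and Sacm1l (0.92 each). The spread of Rc3h1 and Zc3h12c within groups went with the length tilt of the libraries, and its part in these r values was not tested. Zfp36 had weaker neighbours in Klf16 (0.77), Ncstn (0.76) and Dennd6b (0.76), as had the level gene Elavl1 in Dph2 (0.69), Ncdn (0.67) and Gars (0.64).

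Promoters from 250 bases before to 50 after the start (RefSeq, GRCm38.p6) were matched for 6 members, and Zfp36l2 was not among them. The Zfp36 promoter held TTCNNNGAA, which 8.3% of 32851 promoters hold on either strand, and an SRF CArG box (1.63%). Those of Zfp36l1 and Rc3h1 held TGANTCA (7.81%). None of the 6 held ACANNNTGT, TGACGTCA, the ISRE-like motif or the kB consensus in this window, which says only that these letters are absent from it.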

How the data were processed

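The authors deposited FPKM values per library for 47069 gene identifiers. RNA was isolated with TRIzol, and libraries were made and sequenced by Novogene on a NovaSeq platform. The submitters' processing notes name Bowtie2 2.2.3, TopHat2 2.0.12, HTSeq 0.6.1 and DESeq2 (no version given) and the builds GRCm38 and mm10, without their roles. FPKM rescales each library to its total, so abundant genes lower the others. Totals were estimated from FPKM steps with exonic lengths from GENCODE M21; 55.8% to 64.2% of values under 10 fragments came out whole within 0.001, so fragment numbers are approximate.

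Values were tested as log2(FPKM + 1) with limma 3.58.1 in R 4.3.3 (trend, 2-sided) on genes averaging 1 FPKM or more, in a model of all 35 libraries and 12 groups, with Benjamini-Hochberg adjustment at 0.05; fold changes understate low genes. The script was tested on simulated data. Tables and figures used Python 3.11.15, pandas 2.3.3 and matplotlib 3.10.9. Replicates correlated at r = 0.967 to 0.993. Same-numbered AMPKa1-/- libraries deviated together in 3 responses (Dex and LPS against vehicle, LPS + Dex against LPS, with r = 0.12 to 0.40). They did not in DAMPs + Dex against DAMPs (r = -0.49, 0.13 and -0.17). Same-numbered wild-type libraries also did in LPS + Dex against LPS (r = 0.11 and 0.43). Such pairing is inferred from the data, and the labels do not say what a number marks.

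Members, gene lists and markers were chosen with earlier results of these data known. Named genes are the 7 members, the 3 most alike to each, up to 3 called genes with the largest change per list and comparison, all treatment controls and the top marker of each list. Not every gene this rule covers is reported here; those named from the lists were picked from them with their values seen. Targets whose sites are shown, markers at or near 0 and further neutrophil markers were named besides. The alternatives tried were median centring, quantile normalization, fits by genotype, the replicate number as a block, a pseudocount of 0.1, filters at 5 FPKM or none, removal of length and GC trends (added after seeing the data) and leaving out each library.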

Additional observations from a re-analysis of the deposited data

How the results depend on the processing

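Of the 21 member values called across the comparisons, tested under 284 combinations of value and alternative, 259 stayed called, 25 lost the threshold and 0 changed sign. The number of members called moved by over 1.5 times as follows. For wild-type Dex against vehicle (2) it was 1 without the filter, 4 with the length and GC trend removed, and 1 to 2 with a library left out. For AMPKa1-/- against wild-type in Dex (1) it was 0 without the filter, 2 at a mean FPKM of at least 5, 2 after quantile normalization, 3 with the trend removed, and 0 to 3 with a library left out. AMPKa1-/- LPS + Dex against LPS (3) gave 5 with the trend removed and 1 to 4 with a library left out, and wild-type (4) gave 1 to 4. AMPKa1-/- Dex against vehicle (0) gave 0 to 1, and AMPKa1-/- DAMPs + Dex against DAMPs (1) gave 0 to 2. The cause was not tested.

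The fit with the replicate block left the member calls as they were: in wild-type and AMPKa1-/- BMDMs 5 and 5 with LPS, 4 and 3 with LPS + Dex over LPS, 2 and 0 with Dex, and 0 and 1 with DAMPs + Dex over DAMPs. As a random effect between genotypes, the block left 1 member called with Dex.

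Over all genes, calls between genotypes moved by over 1.5 times without the filter (vehicle 49 to 92, LPS 87 to 450, LPS + Dex 76 to 146), at a mean FPKM of at least 5 (vehicle 27, DAMPs 83 to 54), with a pseudocount of 0.1 (DAMPs 41) and with the trend removed (vehicle 87, LPS 205, LPS + Dex 165, DAMPs 128, DAMPs + Dex 120 to 190). Wild-type DAMPs against vehicle went from 228 to 94 with genotypes fitted separately. Tests of a genotype difference in response, 0 as reported, gave 2 to 118 calls without the filter and at most 5 elsewhere. Wild-type LPS has 2 libraries, so a library left out there leaves a sample assumed to vary like the other groups.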
